A study of Mus musculus with 4 samples.

Results

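The citric acid cycle enzymes described here are 9 genes (Cs, Idh2, Idh3a, Idh3b, Idh3g, Ogdh, Dlst, Fh1 and Mdh2), taken as every probe set whose platform gene symbol is one of these names. The rule found 17 probe sets for the 9 genes, out of 22690 probe sets on the array and 12393 genes with a probe set of their own. All 17 lay at or above 64 intensity units, the floor used here for a measured value, on all 4 arrays. RNA from the heart was hybridised to 4 arrays, 1 for each combination of genotype and surgery, and the RNA on an array was a pool (5 to 6 mice per group per the series design). The IL-18 null groups, called null below, carry a deletion of Il18, which encodes the inflammatory cytokine IL-18, on a C57BL/6 background, and the strain of the wild-type groups was not given in the sources used here. The IL-18 null banded pool held left ventricles of 6 mice after transaortic constriction for 1 week, an operation that narrows the aorta and loads the ventricle with pressure. The IL-18 null sham pool held left ventricles of 5 sham-operated mice. The wild-type groups were a banded pool and a sham pool of cardiac muscle, and their banding time, like the age and sex of all groups, was not given in the sources used here. The series asks how IL-18 bears on gene expression in pressure-overload hypertrophy. With 1 array per group, a difference here has no replicate behind it and so no error or p-value of its own. Where 4 values follow each other they are in the order sham and banded wild type, then sham and banded null.

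The citric acid cycle runs in the mitochondrial matrix, where it oxidises acetyl units to carbon dioxide and passes electrons to the respiratory chain as NADH and reduced flavin. The adult heart works almost wholly on oxidative metabolism, and its acetyl units come chiefly from fatty acids. Citrate synthase starts the cycle, the NAD-linked isocitrate dehydrogenase and the 2-oxoglutarate dehydrogenase complex are its main regulated oxidative steps, and fumarase and malate dehydrogenase restore oxaloacetate. In bulk RNA, fewer cells of a type and less RNA per cell cannot be told apart.

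The upstream sequences of 4 member genes are shown because Ogdh, Idh2 and Dlst had the widest spread between arrays among the brightest probe sets, while Fh1 ran the other way on the wild-type sham array. They come from RefSeq promoter windows (build GRCm38.p6), which matched 8 of the 9 genes and run from 250 bases before to 50 bases after a transcription start. The 250 bases before the start are printed 5′ to 3′ on the gene's own strand, at chr11:6291347-6291596 (plus strand, the first of the Ogdh windows), chr7:80115351-80115600 (minus strand), chr12:85110583-85110832 (plus strand) and chr1:175625636-175625885 (minus strand). Capitals mark GGGCGG (SP1) and CCAAT (NFY) on either strand.
Ogdh: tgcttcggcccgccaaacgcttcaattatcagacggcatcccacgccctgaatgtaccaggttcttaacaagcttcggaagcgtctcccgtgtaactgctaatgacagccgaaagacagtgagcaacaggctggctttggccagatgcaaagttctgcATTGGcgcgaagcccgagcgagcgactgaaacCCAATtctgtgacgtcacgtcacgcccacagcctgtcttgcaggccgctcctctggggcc
Idh2: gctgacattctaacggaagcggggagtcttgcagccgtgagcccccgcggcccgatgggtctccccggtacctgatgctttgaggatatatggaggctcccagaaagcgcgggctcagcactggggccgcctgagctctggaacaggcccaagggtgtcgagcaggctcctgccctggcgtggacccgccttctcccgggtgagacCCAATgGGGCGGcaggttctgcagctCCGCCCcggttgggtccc
Dlst: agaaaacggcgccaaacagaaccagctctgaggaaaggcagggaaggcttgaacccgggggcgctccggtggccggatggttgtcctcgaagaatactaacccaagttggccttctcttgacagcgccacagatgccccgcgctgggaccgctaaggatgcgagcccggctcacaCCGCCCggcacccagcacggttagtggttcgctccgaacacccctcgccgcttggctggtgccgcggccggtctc
Fh1: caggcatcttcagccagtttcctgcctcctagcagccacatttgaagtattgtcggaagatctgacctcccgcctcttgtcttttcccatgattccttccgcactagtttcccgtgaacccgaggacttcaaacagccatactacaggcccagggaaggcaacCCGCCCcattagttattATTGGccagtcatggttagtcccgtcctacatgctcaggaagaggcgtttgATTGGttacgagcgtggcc

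Letters of 5 motifs were searched on both strands of the whole 300-base windows. GGGCGG occurred in windows of 6 of the 8 member genes, and in 35.7% of all 32851 windows in the table. CCAAT occurred in 5 of the 8, namely Cs, Fh1, Idh2, Idh3b and Ogdh, and in 37.4% of all windows. The ETS-type letters CCGGAAGT (GABPA) occurred in the Dlst window only, from its transcription start onward, and in 3.89% of all windows. TCAAGGTCA (the estrogen-related receptors) and the NRF1 motif occurred in none of the 8, and in 0.423% and 0.971% of all windows. Genes with several windows, such as Ogdh with its 6, had more chances of a match than genes with 1. The member windows held 11 to 37 CpG pairs (C followed by G) and 49.3% to 72.3% G and C. Over all windows the medians were 7 and 52.7%. The part of this base composition in the matches was not tested. Of the genes lowest on the wild-type sham array by their brightest probe sets, Ogdh and Idh2 held both GGGCGG and CCAAT. Dlst held GGGCGG only of these letters, Idh3g held neither and Idh3a had no window. Of the genes highest on that array, Cs and Fh1 held both and Mdh2 held GGGCGG only. The part of these letters in the members' values was not tested.

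On the wild-type sham array, Ogdh, Idh2 and Dlst had far lower signal than on the other 3 arrays by their brightest probe sets, and the rest did not. Idh3a (3900.9, against 4482.8 in null banded) and, by a narrow margin, Idh3g were also lowest there. In contrast Cs, Fh1 and Mdh2 were highest there by their brightest probe sets. Other probe sets of Cs (315.7) and Mdh2 (7580.1) were lowest there, so this split depended on the probe set. The wild-type banded array gave the highest value for 11 of the 17 probe sets and the lowest for 0. Wild-type sham gave the lowest for 10 and the highest for 4. Among all 5378 probe sets of 1 gene above the floor on all 4 arrays, wild-type sham was lowest for 33.1% and highest for 39.7%. Wild-type banded was highest for 21.9% of them and lowest for 36.9%. All values are intensities on a linear scale as deposited, and differences below are on the log2 scale, with a 2-fold difference equal to 1.

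**Figure D1:**
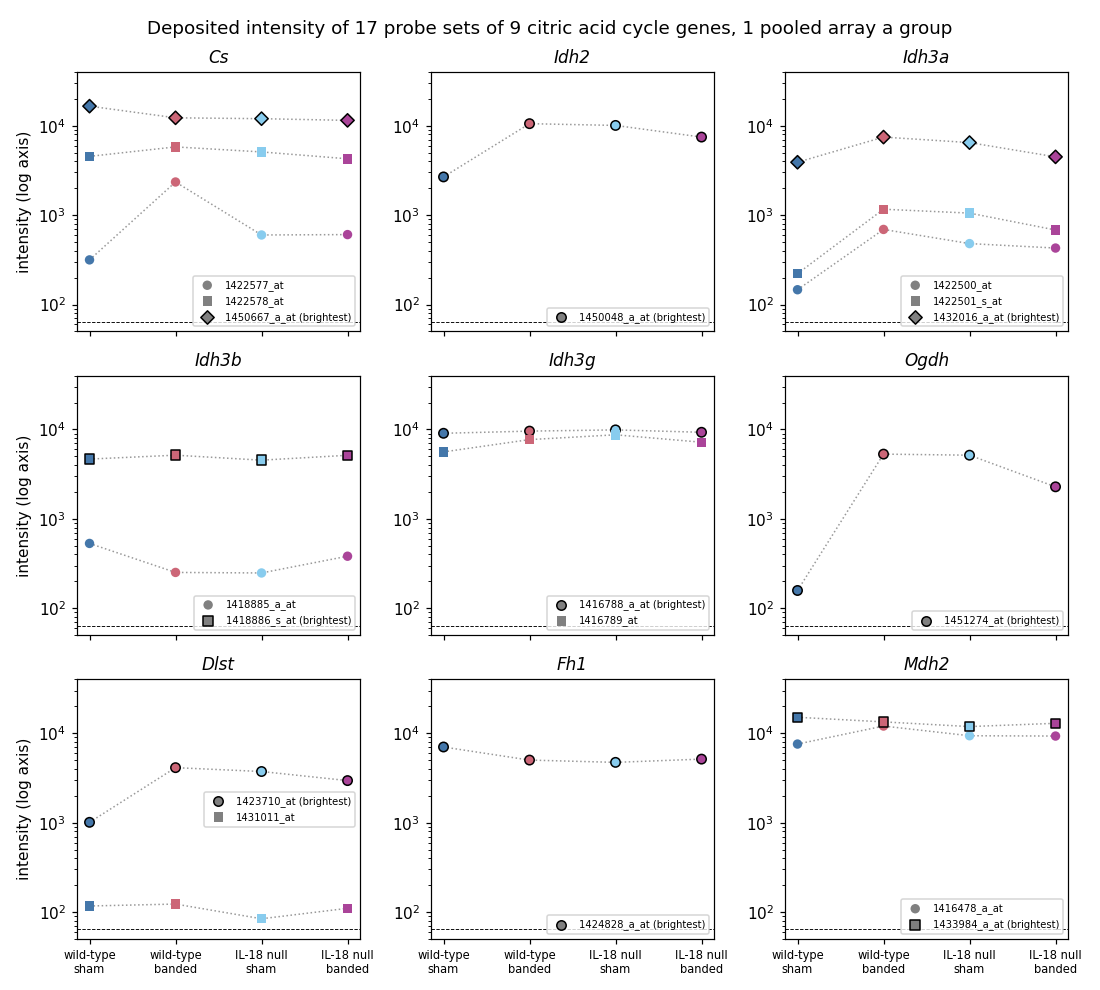
Deposited intensity (log axis) of each of the 17 probe sets in the 4 groups, 1 point per pooled array, with the dashed line at the floor of 64 units and a black outline on the brightest probe set of each gene. Ogdh goes from 158.3 in wild-type sham to 5304.6 in wild-type banded, while Idh3g stays between 9069.9 and 9900.3 by its brightest probe set; levels of different probe sets are not comparable.

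The tissue label, heart muscle, was checked against marker genes. All 10 ventricular cardiomyocyte markers, among them the myosin gene Myh6 and the troponin genes Tnnt2 and Tnni3, lay above the floor on all 4 arrays. Il18 itself had intensities of 9.1, 7.4, 8.2 and 8.4, all below the floor, so it cannot check the genotype labels. The control probe sets of Gapdh, a glycolytic enzyme, differed widely between arrays. Its middle probe set read 83.6, 17062.5, 1619.6 and 3885.1, and its 3′ probe set 2044.5, 15321.5, 10743.7 and 12239.1. The middle probe set of the actin gene Actb read 16.9, 1918.5, 87.8 and 108.8. These control probe sets were lowest in wild-type sham and highest in wild-type banded, as were Ogdh, Idh2, Dlst and Idh3a, and their part in the members' results was not tested. Across the 5158 genes at or above the floor on any array, wild-type sham correlated with wild-type banded at a Pearson's r of 0.703. With null sham and null banded its r was 0.833 and 0.824, and the pairs without it had 0.9 to 0.938. The comparisons that leave out the wild-type sham array are banding in null and genotype in banded hearts. Genotype in banded hearts still holds wild-type banded, where the 5′ probe set of Gapdh read 13236.5, against 597.2 in null banded. The 3′ minus middle difference of Gapdh (log2) was 4.61, -0.16, 2.73 and 1.66, so wild-type banded stood apart too. Its part in the members' values was not tested.

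Ogdh, the dehydrogenase subunit that opens the 2-oxoglutarate dehydrogenase complex, had intensities of 158.3, 5304.6, 5159.5 and 2285.1. Wild-type sham was far below the other arrays, and null banded lay below the remaining pair. Ogdh was thus higher by 5.07 (33.5-fold) in wild-type banded than in wild-type sham, the 32nd largest of 5040 genes measured in that comparison. In null, banded minus sham was -1.18, 77th from the bottom of 4827 genes. Null minus wild type was 5.03 without banding and -1.22 with it. Ogdh has 1 probe set, so no other probe set could check these values.

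Dlst, the succinyltransferase core of the same complex, had intensities of 1010.2, 4128.2, 3737.6 and 2958.2 by its brightest probe set. It followed the order of Ogdh over a narrower range. The banding difference was 2.03 in wild type and -0.34 in null. Its other probe set was dim, at 117.1, 123.1, 84.3 and 110.3, and gave 0.07 (-0.52 after quantile normalization) in wild type and 0.39 in null. The complex's remaining enzyme, Dld, is shared with pyruvate dehydrogenase and is no member here. Dld read 4115.4, 4300.5, 4666.9 and 4155.2, with banding differences of 0.06 and -0.17. By the brightest probe sets, the signals of the 3 components differed unequally between the wild-type arrays. The dim Dlst probe set (0.07) lay beside Dld (0.06). The order of the components thus depended on the probe set read.

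Idh2, the NADP-linked isocitrate dehydrogenase of mitochondria, which also supplies reducing power against oxidants, had intensities of 2673.9, 10536.5, 10070.7 and 7460.9. Again wild-type sham was lowest and null banded next. Idh2 was higher by 1.98 with banding in wild type and at -0.43 in null. It was higher by 1.91 in null sham than in wild-type sham, and at -0.50 between the banded arrays.

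The NAD-linked isocitrate dehydrogenase is built from a catalytic subunit, Idh3a, and the partner subunits Idh3b and Idh3g, the latter regulatory. Idh3a read 3900.9, 7458.6, 6471.6 and 4482.8 by its brightest probe set. Its other probe sets read 146.4, 691.6, 480.3 and 428.3, and 221.5, 1163.9, 1053.2 and 681.5. All 3 put the arrays in the same order, with wild-type sham lowest, wild-type banded highest and null banded below null sham. The size of the wild-type banding difference depended on the probe set, at 0.94 for the brightest (1.06 after cyclic loess) and 2.24 and 2.39 for the others. In null the same probe sets gave -0.53, -0.17 and -0.63.

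Idh3b read 4668.4, 5161.1, 4539.5 and 5147.9 by its brightest probe set, with banding differences of 0.14 in wild type (-0.12 after quantile normalization) and 0.18 in null. Its dimmer probe set ran the other way from Idh3a, at 531.8, 252.1, 248.6 and 382.7. That probe set was highest in wild-type sham, with banding differences of -1.08 in wild type and 0.62 in null. It was the only member probe set at least 2-fold lower in wild-type banded than in wild-type sham, and after cyclic loess its difference was -0.88, within 2-fold. Idh3g read 9069.9, 9590.6, 9900.3 and 9308.6, and 5614.3, 7708.2, 8723.0 and 7206.0 by its other probe set. Idh3g differed by 0.08 (-0.13 after quantile normalization) and 0.46 with banding in wild type and by -0.09 and -0.28 in null. The catalytic subunit's signal was thus the one that varied most between arrays by the brightest probe sets.

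Cs, citrate synthase, is an enzyme often used as a gauge of mitochondrial content. Its brightest probe set read 16542.6, 12249.6, 11981.7 and 11469.9, highest in wild-type sham. A second probe set read 4539.7, 5793.0, 5089.8 and 4265.0, and the dimmest 315.7, 2346.5, 599.5 and 605.6. The banding difference in wild type was -0.43, 0.35 and 2.89 by the 3 probe sets, so its sign and size depended on which was read. In null the same probe sets gave -0.06, -0.26 and 0.01, the last of these below 0 after quantile (-0.11) and cyclic loess (-0.09) normalization. The platform lists the same sequence record for all 3.

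Fh1, fumarase, had intensities of 7027.1, 5017.0, 4730.7 and 5143.9 and was highest in wild-type sham. Its banding difference was -0.49 in wild type and 0.12 in null. Mdh2, the mitochondrial malate dehydrogenase, read 15108.9, 13418.1, 11885.8 and 12933.0 by its brightest probe set and 7580.1, 12051.8, 9388.9 and 9315.5 by the other. The probe sets of Mdh2 disagreed in sign in wild type (-0.17 and 0.67) and lay near 0 in null (0.12 and -0.01). Neither gene reached 2-fold by any probe set in any of the comparisons of 2 arrays.

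**Figure D2:**
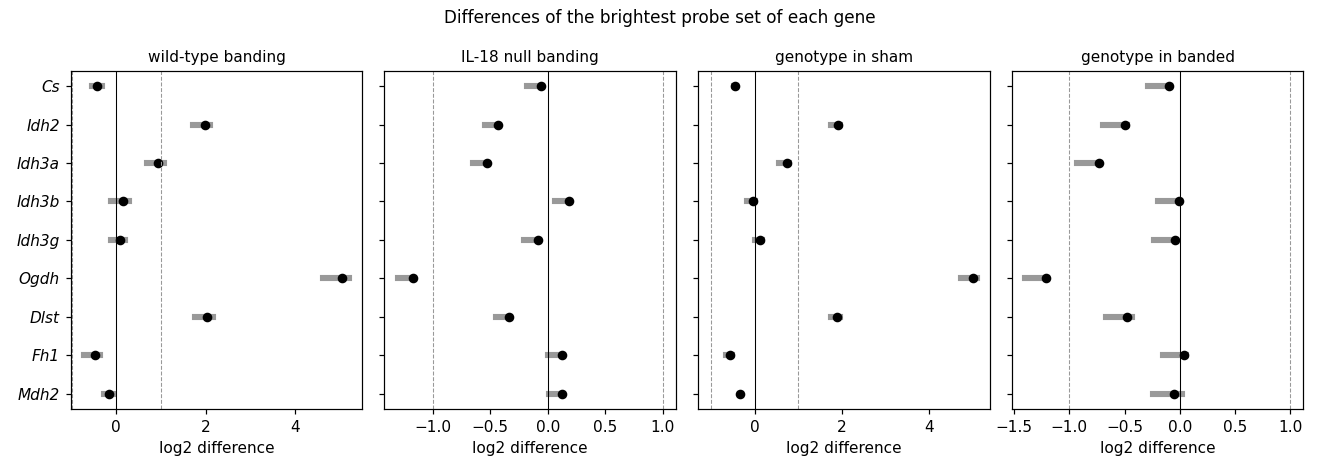
Log2 differences of the brightest probe set of each of the 9 genes (points) in the 4 comparisons of 2 arrays, with grey bars spanning the deposited scale, quantile and cyclic loess normalization, dashed lines at 2-fold, and a separate horizontal scale in each panel. Ogdh stands at 5.07 and 5.03 where the wild-type sham array is subtracted, and at -1.18 and -1.22 in the other comparisons.

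Banding in wild type was summarised over the 9 genes, each by its brightest probe set. Ogdh, Dlst and Idh2 were at least 2-fold higher in banded and 0 genes were at least 2-fold lower. Of all 5040 genes measured, 21.7% were at least 2-fold higher and 12.8% lower, and 9 genes are too few to set the members' shares apart from these. The members' median was 0.14, against -0.08 over all genes. After quantile normalization these medians were -0.12 and -0.42, and after cyclic loess 0.27 and 0.10. The sign of the members' median thus depended on the scaling, while it stayed above that of all genes. With the mean of a gene's probe sets the medians were 0.94 and 0.12. Without _s_at, _x_at and _a_at probe sets, which left 5 members, they were 2.03 and -0.02. The choice of probe sets thus moved the members' median more than the scaling did. By probe set, 6 of 17 were at least 2-fold higher and 1 lower, against 24.9% and 11.5% of all 7200 probe sets measured. Other cell types' markers differed between these arrays too. Summed intensities of the 10 cardiomyocyte markers were 163034.7 in sham and 237892.7 in banded, with 2 (Mybpc3 and Mb) at least 2-fold higher. Fibroblast markers summed to 7958.6 and 22964.3, with 5 of 7 measured at least 2-fold higher, and endothelial markers to 2654.7 and 4798.9, with 5 of 8 higher. Their part in the members' values was not tested.

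Banding in null gave small differences in the members. Ogdh was at least 2-fold lower (-1.18) and 0 of the 9 genes were at least 2-fold higher, where 2.53% of all 4827 genes were lower and 6.98% higher. The other 8 genes lay between -0.53 (Idh3a) and 0.18 (Idh3b). The members' median was -0.09, against 0.08 over all genes, and -0.19 and -0.20 after quantile and cyclic loess normalization. By the brightest probe sets, the 6 genes below 0 were Ogdh, Idh3a, Idh2, Dlst, Idh3g and Cs. The 3 above 0 were Idh3b, Mdh2 and Fh1, and both groups were the same in each of the 3 scalings. The other probe sets of Dlst (0.39) and Mdh2 (-0.01) and the dimmest of Cs (0.01) had the opposite sign. On the deposited scale, 33.1% of all genes lay below Cs, the nearest to 0 of the 6. Below Fh1, the nearest to 0 of the 3, lay 53.8%. By probe set 1 of 17 was at least 2-fold lower and 0 higher, against 4.2% and 6.64% of all probe sets. Markers of other cell types differed in this pair. The summed intensity of 8 fibroblast markers was 12036.8 in sham and 35201.7 in banded, with 5 of 7 measured at least 2-fold higher, and that of 8 macrophage markers was 1772.0 and 6634.2, with 5 of 7 higher. Tcf21 among the fibroblast markers was below the floor on all arrays. The summed intensity of the 10 cardiomyocyte markers was 218776.1 and 212046.5, with 0 at least 2-fold either way. The part of these cell types in the members' values was not tested.

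Between the sham arrays, Ogdh, Idh2 and Dlst were higher in null by 5.03, 1.91 and 1.89, all past 2-fold, and 0 were lower, where 16.3% of 4851 genes were higher and 6.29% lower. The other probe set of Dlst was at -0.47, and the mean of its probe sets was 0.71, within 2-fold. This comparison subtracts the same wild-type sham array as banding in wild type, so the 2 results are not independent. The members' median was 0.13, against -0.07 over all genes. By the brightest probe sets, Fh1 (-0.57), Cs (-0.47) and Mdh2 (-0.35) lay below 0 in all 3 scalings. The other probe sets of Cs were at 0.165 and 0.93, and that of Mdh2 was at 0.31, so those signs depended on the probe set. By probe set 5 of 17 were at least 2-fold higher and 1 lower, against 18.4% and 6.02%. The cardiomyocyte markers summed to 163034.7 in wild-type sham and 218776.1 in null sham, with Mybpc3 and Mb at least 2-fold higher. The endothelial markers had 4 of 7 measured at least 2-fold higher, from a summed intensity of 2654.7 to 4029.7. Their part in the members' values was not tested.

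Between the banded arrays, 8 of the 9 genes had lower signal in the null pool by the brightest probe set. Of all 4947 genes measured, 39.6% lay below Idh3b, the nearest to 0 of the 8, and 43.2% below Fh1, which lay above 0. Ogdh was at least 2-fold lower (-1.22) and 0 genes were higher, where 7.74% of 4947 genes were lower and 5.7% higher. Idh3a (-0.73), Idh2 (-0.50) and Dlst (-0.48) followed, and Cs, Mdh2, Idh3g and Idh3b lay between -0.09 and 0.00. Fh1 was at 0.04. The signs of the small differences depended on the scaling: Mdh2 and Idh3b were at 0.02 and 0.00 after quantile normalization, and Fh1 at -0.16 after cyclic loess. The members' median was -0.09, against 0.11 over all genes (-0.09 and 0.16 after quantile normalization, -0.29 and -0.06 after cyclic loess). By probe set 2 of 17 were at least 2-fold lower and 0 higher, against 10.9% and 5.11%; they were that of Ogdh and the dimmest of Cs (-1.95). All 3 Idh3a probe sets lay below 0, at -0.69, -0.77 and -0.73. Cardiomyocyte markers had 0 of 10 past 2-fold in this pair, fibroblast markers 3 of 7 higher in null and 0 lower, and macrophage markers 3 of 8 higher and 1 lower. Endothelial markers had 0 of 8 higher and 2 lower, with a median of -0.50. The 2 lower were Egfl7 (-1.04) and Pecam1 (-2.67 or lower, since null banded was below the floor). The 4 atrial markers had a median of -0.82, with 0 past 2-fold. Among them Nppa was higher in null (0.86), while Myl7, Sln and Myl4 were lower. The part of these cell types in the members' values was not tested.

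The banding differences of the genotypes were then set against each other, probe set by probe set; these comparisons share no array. Of the 17 probe sets, 10 lay above 0 for wild type and below 0 for null on the deposited scale, and 3 the opposite way. Another 3 lay above 0 in both and 1, the brightest of Cs, below 0 in both. The same counts over all probe sets were not made, so those of the members cannot be set against the whole array. Across the 17 Pearson's r was -0.79 and Spearman's rho -0.72, and without the Ogdh probe set r was -0.63 and rho -0.66. Across all 6577 probe sets measured in both, r was -0.16 and rho -0.16. Probe sets of 1 gene, and all values of 1 array, are not independent, so these correlations describe the 4 arrays only. In the difference of the responses (null minus wild type), 4 of 9 genes were at least 2-fold lower and 0 higher, against 21.0% and 20.4% of 5158 genes. They were Ogdh (-6.24), Idh2 (-2.41), Dlst (-2.37) and Idh3a (-1.46), and this difference holds the wild-type sham array.

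**Figure D3:**
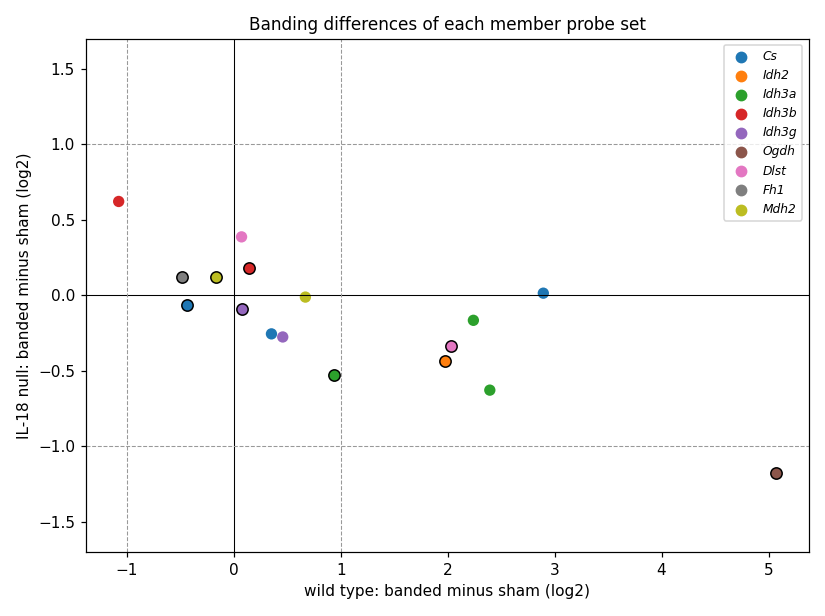
Banding difference in wild type (horizontal, log2) against that in null (vertical, log2) for the 17 member probe sets, coloured by gene, with a black outline on the brightest probe set of each gene and dashed lines at 2-fold. Ogdh lies at 5.07 and -1.18, and the dim Idh3b probe set at -1.08 and 0.62.

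Probe sets of 1 gene often disagreed in sign. Of the 6 member genes with several probe sets, 3 (Cs, Idh3b and Mdh2) had probe sets of opposite sign for banding in wild type, against 50.8% of all 1485 genes with several measured. The range between a gene's probe sets had a median of 1.34 in the members and 1.25 in all these genes. For banding in null, 3 of the 6 (Cs, Dlst and Mdh2) had probe sets of opposite sign, against 44.9% of 1337 genes. In null the corresponding median ranges were 0.36 and 0.51. The spread between probe sets of 1 gene was thus about that of the array as a whole, and in wild type its median was above the 2-fold threshold.

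The other enzymes of the cycle had a like split. Among the 8 found on the array, wild-type banding gave 4 at least 2-fold higher and 0 lower, with a median of 0.92. Of all genes, 21.7% were higher and 12.8% lower. Sdhc, a membrane anchor of succinate dehydrogenase, read 54.6 in wild-type sham, below the floor, and 3323.2, 1761.5 and 1654.8 on the other arrays, and was higher by at least 5.70. Suclg2, a subunit of succinyl-CoA ligase, read 76.9, 370.1, 318.6 and 181.7 and was higher by 2.27. Sdhb, the iron-sulphur subunit of succinate dehydrogenase, was higher by 1.61 and Suclg1, the shared subunit of succinyl-CoA ligase, by 1.10. In contrast Sdha, the flavoprotein subunit, was at -0.65. In null 0 of the 8 were at least 2-fold either way (median -0.14), where 6.98% of all genes were higher and 2.53% lower. Between the sham arrays, which share wild-type sham with the comparison just given, null was higher for Sdhc (at least 4.78), Suclg2 (2.05), Sdhb (1.36) and Suclg1 (1.22), and between the banded arrays Suclg2 (-1.03) and Sdhc (-1.01) were lower.

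The pyruvate dehydrogenase complex, which feeds acetyl-CoA into the cycle, and its regulators had 6 measured genes. Wild-type banding put 1 at least 2-fold higher and 0 lower (median 0.03), against 21.7% and 12.8% of all genes. That gene was Pdk2, a kinase that switches the complex off, at 31.0, 2834.0, 1332.8 and 696.8, higher by at least 5.47 since wild-type sham was below the floor. In null 0 of 6 passed 2-fold (median -0.21), and Pdk2 was at -0.94. Over all genes, 6.98% were higher and 2.53% lower in null. Between the sham arrays Pdk2 was higher by at least 4.38 in null, and between the banded arrays it was at -2.02. The catalytic subunits Pdha1 and Pdhb differed by 0.27 and -0.10 with banding in wild type.

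Genes of anaplerosis, metabolite shuttles and cytosolic counterparts differed both ways in wild type. Of 11 measured, 5 passed 2-fold upwards and 3 downwards (median 0.27), against 21.7% and 12.8% of all genes. Higher were the 2-oxoglutarate carrier Slc25a11 (at least 6.22), the aspartate aminotransferases Got1 (4.11) and Got2 (2.54), the aspartate-glutamate carrier Slc25a13 (3.22) and glutamate dehydrogenase Glud1 (1.61). Lower were the cytosolic enzymes Acly (-1.22), which splits citrate for lipid synthesis, Idh1 (-1.18) and Aco1 (-1.08). Mdh1, the cytosolic malate dehydrogenase, was at -0.14. In null 1 was at least 2-fold higher (Acly, 1.02) and 1 lower (Slc25a13, -1.60), with a median of -0.34. Over all genes, 6.98% were higher and 2.53% lower in null. Between the sham arrays 5 were at least 2-fold higher in the null pool: Slc25a11 (at least 5.74), Got1 (3.91), Slc25a13 (2.39), Got2 (2.22) and Glud1 (1.85). Acly was lower there (-1.04), where 16.3% of all genes were higher and 6.29% lower. Between the banded arrays Acly was higher in null (1.20), and Slc25a13 (-2.43), Got1 (-1.06) and Slc25a11 (-1.03) were lower. Of all genes, 5.7% were higher and 7.74% lower in that pair.

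**Figure D4:**
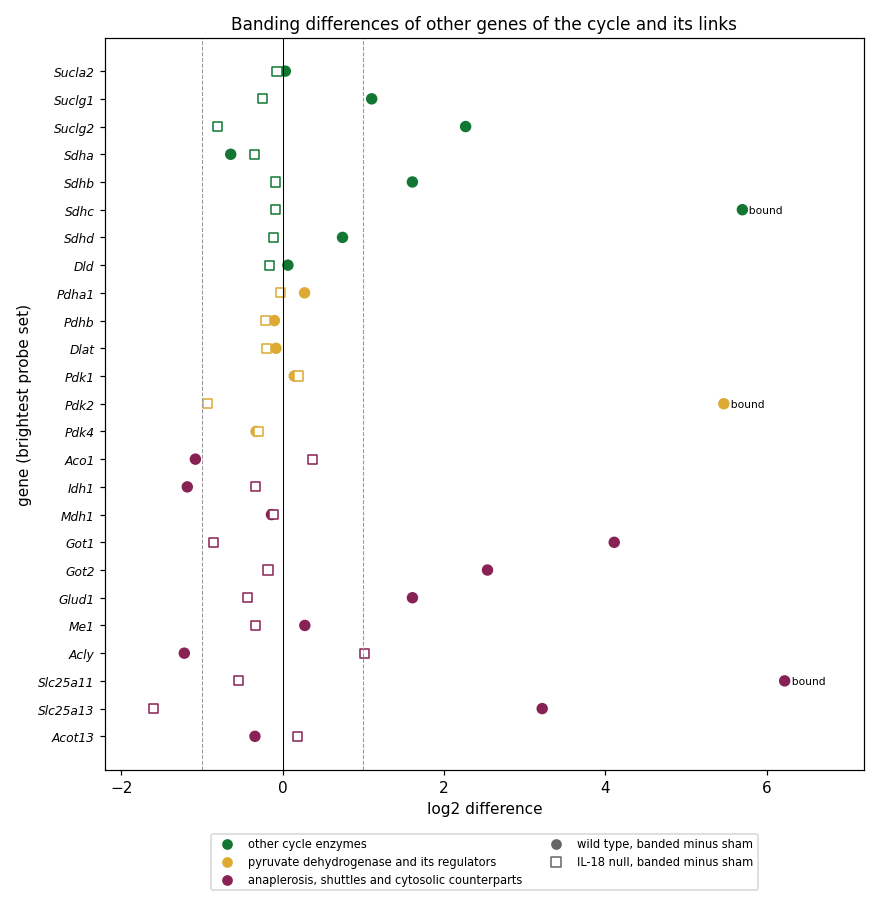
Banding differences (log2) in wild type (filled circles) and null (open squares) for the 25 measured genes of the other cycle enzymes, the pyruvate dehydrogenase group and the anaplerosis group, by the brightest probe set, with dashed lines at 2-fold. Points marked as a bound had wild-type sham below the floor of 64 units; Slc25a11 stands farthest out, at no less than 6.22.

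An additive fit with surgery and genotype as terms was run with limma over 5158 genes, with 1 residual degree of freedom. It called 0 genes at an adjusted p of 0.05 for banding and 0 for genotype, so 0.0% of genes and 0 of the 9 members were called. At an unadjusted p under 0.05, 98 genes (1.9%) passed for banding and 13 (0.252%) for genotype, and 0 of the members. The fit's residual holds the difference of the banding responses, which was at least 2-fold for 41.4% of these genes.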

How the data were processed

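Values were used as deposited by the authors: intensity values on a linear scale (from 1.5 to 43811.1), computed with GCRMA per the submitters' processing notes, whose version and settings are not given in the sources used here. The range of the values shows a linear scale. RNA was pooled before hybridisation, and with 1 array per group the number of arrays limits the precision. Of 22690 probe sets, the platform annotation gave 1 gene to 20380; 691 with several genes, 1555 with none and 64 controls were left out. The probe set of highest mean log2 value stood for its gene. Values below log2 6 (64 units) were set to that floor, and genes reaching it on 1 or both arrays of a comparison were measured there. Genes were counted at 2-fold with no test. The secondary fit was limma 3.58.1 (lmFit, eBayes with trend, Benjamini-Hochberg) in R 4.3.3 on unfloored log2 values. The counts and the fit were tested on simulated data. The members, lists, named genes and alternatives were chosen with earlier results of these data known. Every member probe set is named; of the other lists, up to 4 genes past 2-fold per list and comparison, and each gene past 2-fold in both comparisons that subtract wild-type sham. Dld, Sdha, Pdha1, Pdhb and Mdh1 were named after their values were seen. The marker lists were ventricular cardiomyocyte, fibroblast, endothelial, macrophage, smooth muscle, red cell, adipocyte and atrial genes.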

Additional observations from a re-analysis of the deposited data

Results flagged for a closer look

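Ogdh was singled out because its banding differences ran in opposite directions in the genotypes, each past 2-fold: 5.07 for wild-type hearts and -1.18 for IL-18 null hearts, so that the response in IL-18 null minus that in wild type was -6.24 (log2). The difference between the genotypes was not tested, since each response rests on 1 array a group. The wild-type response subtracts the sham array on which Ogdh read 158.3, and the middle control probe set of Gapdh read 83.6 on that array against 1619.6 to 17062.5 on the others.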

How the results depend on the processing

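Counts of member genes past 2-fold were the same, or within 1.5 times, with floors at log2 5 and 7, without a floor, after quantile and cyclic loess normalization, with the mean of a gene's probe sets and without probe sets of the _s_at, _x_at and _a_at types (which left 5 genes). The floor settings could not change them: the lowest brightest probe set value of a member was 158.3 (Ogdh, wild-type sham), above log2 7. The floor settings' values are among the 340 below and could not differ from those at log2 6. With the mean of probe sets, the same held for Idh2, Ogdh and Fh1, which have 1 probe set each. Part of the tally below was thus fixed in advance. Equal counts could hold different genes. Without the _s_at, _x_at and _a_at types, Idh2 had no probe set and Idh3a passed 2-fold (2.24 in wild-type banding, 1.71 for genotype in sham). With the mean of probe sets, genotype in sham gained Idh3a (1.56) and lost Dlst (0.71). With every probe set counted on its own, the counts either way were 7 for wild-type banding, 6 for genotype in sham, 2 for genotype in banded and 8 for the difference of responses, of 17 probe sets. At a 1.5-fold threshold, genotype in banded had 2 genes. The members' medians moved with the choice of probe sets. For genotype in sham the median was 0.38 with the mean of probe sets and 1.71 without the _s_at, _x_at and _a_at types. For the difference of responses these medians were -1.03 and -2.37, against -0.17 by the brightest probe sets. For single genes, 328 of 340 values stayed on the same side of the threshold, and 16 of these, all within 2-fold, changed sign (Idh3b and Idh3g in wild-type banding fell to -0.12 and -0.13 after quantile normalization, and Cs rose to 0.35 without the _s_at, _x_at and _a_at types). Another 9 passed it under an alternative only, 1 no longer passed it (Dlst for genotype in sham, 0.71 with the mean of its probe sets) and 1 moved without passing it. With the mean of its probe sets, Cs reversed in the difference of responses, to -1.04. The additive fit called 0 members under each of its 5 alternatives; after quantile normalization it called 47 genes for banding and 7 for genotype. No paired analysis was possible because each group has 1 array. No array could be left out of a group of 1. Values near the floor, such as the dim Dlst probe set, have little signal over background.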

Other observations

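Idh3a lies on chromosome 9, as Il18 does, with 45 protein-coding genes annotated between them in the RefSeq table (GRCm38.p6), and it is the only member on that chromosome. Its genotype differences had opposite signs by surgery in each of its 3 probe sets: 0.73, 1.71 and 2.25 between the sham arrays, and -0.73, -0.69 and -0.77 between the banded arrays.

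Markers of the remaining cell types gave these values. The 4 atrial genes summed to 4273.3, 11136.4, 4080.8 and 15223.0 in sham and banded wild type, then sham and banded IL-18 null, chiefly through Nppa, which encodes atrial natriuretic peptide. The smooth muscle genes summed to 2857.5, 2575.0, 1665.2 and 2166.1, with Myh11 and Cnn1 below the floor on all arrays. Of the adipocyte genes Adipoq was below the floor on all arrays, and Fabp4, which endothelial cells also express, read between 13519.9 and 14101.4. The red cell genes summed to between 24.1 and 85.1.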
